A study of Homo sapiens with 20 samples.

Results

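Heat-shock proteins and their cochaperones, 10 of the 43366 genes counted, were followed through an IFNγ experiment in U2OS cells. They were HSPA1A, HSPA1B, HSPA8, HSPA6, HSP90AA1, HSPH1, HSPB1, HSPD1, DNAJB1 and BAG3. The genes were chosen by name, with the lower level of several of them after IFNγ in these libraries already known, and all 10 passed the filter on low counts in every comparison. The difference between treated and untreated libraries is therefore given for these genes as a description, with no test, whereas the comparison of WT with KO labels was not used in the choice and was tested.

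U2OS is a human osteosarcoma cell line. The libraries came from 5 WT clones and 5 clones labelled ZBTB48 KO, the replicates being separate clones, untreated or after 24 h with 250 U/ml IFNγ, which gives 4 groups of 5 libraries of polyA RNA. All cells grew in one medium with foetal bovine serum and antibiotics, and by the labels the same clone gave the untreated and the treated library of a replicate number. The study made these libraries to ask how loss of ZBTB48, a zinc finger transcription factor, alters the response to IFNγ.

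Heat-shock proteins are chaperones, which bind unfolded stretches of other proteins and help them to fold, to be refolded after damage or to be handed to degradation. HSP70 proteins such as HSPA8 and HSPA1A bind and release short hydrophobic segments in a cycle driven by ATP. J-domain proteins such as DNAJB1 start that cycle, and nucleotide exchange factors such as HSPH1 and BAG3 end it. HSP90 matures kinases and steroid receptors, small heat-shock proteins such as HSPB1 hold unfolded proteins without ATP, and HSPD1 is the folding chamber of mitochondria. Under heat or other proteotoxic stress, the transcription factor HSF1 binds heat-shock elements, which are inverted repeats of a short GAA unit, and raises the stress-inducible members. HSPA8 is by contrast made in unstressed cells throughout the body, and cancer cell lines often carry raised chaperone levels.

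The promoters are shown first because heat-shock genes differ in how many heat-shock elements lie before their start. RefSeq (GRCh38.p14) gave 14 windows of 250 bases before an annotated start for the 10 genes. A pair of units, GAANNTTC or TTCNNGAA on either strand, was found in windows of 8 of the 10 genes, against 11.6% of all 35114 windows and 3813 of the 27303 genes with a window. A run of 3 alternating units, GAANNTTCNNGAA or its reverse complement TTCNNGAANNTTC, each of which holds 2 overlapping pairs, was found in 4 of them (HSPA8, HSPA6, HSP90AA1 and HSPD1), against 0.557% of all genes. HSPH1 and BAG3 held neither in these windows. The box CCAAT, on either strand, was found in 5 of the 10 genes (HSPA1A, HSPA1B, HSPA8, HSP90AA1 and DNAJB1), against 37.0% of all genes. A match is a run of letters in the reference and does not show binding. The lack of an exact match in these 250 bases does not show that a gene has no heat-shock element.

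The windows of 5 genes are printed 5′ to 3′ up to the base before the start, with every pair of units, alone or within a longer run, in capitals. HSPA1A and HSPA1B are given because they had the largest differences after IFNγ and HSPA8 because it was the highest HSP70 gene per length. HSP90AA1 and HSPD1, each with the second of its annotated windows, are given because they hold 3-unit runs too and differed little after IFNγ. HSPA6 also holds such a run and is not printed. Whether these elements relate to the differences after IFNγ was not tested.
HSPA1A (chr6:31815293-31815542, plus strand): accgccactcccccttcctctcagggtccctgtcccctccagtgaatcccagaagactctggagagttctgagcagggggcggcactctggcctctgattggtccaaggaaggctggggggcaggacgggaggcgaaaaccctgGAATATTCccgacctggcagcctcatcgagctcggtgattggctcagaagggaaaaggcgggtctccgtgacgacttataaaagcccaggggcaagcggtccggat
HSPA1B (chr6:31827488-31827737, plus strand): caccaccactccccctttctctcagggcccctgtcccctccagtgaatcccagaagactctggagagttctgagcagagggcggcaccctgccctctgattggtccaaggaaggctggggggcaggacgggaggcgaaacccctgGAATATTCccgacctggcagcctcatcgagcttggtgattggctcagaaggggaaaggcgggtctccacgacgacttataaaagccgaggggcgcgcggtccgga
HSPA8 (chr11:123062137-123062386, minus strand): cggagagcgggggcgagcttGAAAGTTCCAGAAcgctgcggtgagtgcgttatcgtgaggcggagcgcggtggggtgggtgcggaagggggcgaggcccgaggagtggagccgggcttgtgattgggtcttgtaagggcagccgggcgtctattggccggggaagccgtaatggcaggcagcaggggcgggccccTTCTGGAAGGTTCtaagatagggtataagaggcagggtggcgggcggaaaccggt
HSP90AA1 (chr14:102087045-102087294, minus strand): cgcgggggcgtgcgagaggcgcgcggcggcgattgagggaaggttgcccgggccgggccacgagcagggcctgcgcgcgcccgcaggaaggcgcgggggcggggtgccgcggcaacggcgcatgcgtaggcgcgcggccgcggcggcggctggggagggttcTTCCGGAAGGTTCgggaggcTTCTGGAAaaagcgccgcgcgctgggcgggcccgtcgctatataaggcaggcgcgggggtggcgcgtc
HSPD1 (chr2:197499841-197500090, minus strand): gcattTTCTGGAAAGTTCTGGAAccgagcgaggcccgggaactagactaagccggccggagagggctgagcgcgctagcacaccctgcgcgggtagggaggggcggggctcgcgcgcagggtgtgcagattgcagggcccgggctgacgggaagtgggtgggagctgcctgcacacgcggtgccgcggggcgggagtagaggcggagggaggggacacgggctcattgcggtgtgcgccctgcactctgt
The windows of HSPA1A and HSPA1B were identical at 235 of 251 aligned positions (93.6%), each with a single pair of units, GAATATTC, starting 106 and 105 bases before the start. HSPA8 held a 3-unit run at 230 and another at 55 bases before its start, and the run of HSP90AA1 began 88 bases before its start. In HSPD1 overlapping 3-unit runs began 245 and 240 bases before this start.

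Depth was alike across the groups, with 46652288 to 72952859 counts per library, and no library was an exact copy of another. Markers of the osteoblast lineage fixed for the cell type summed to between 2878 and 10685 CPM (counts per 1000000 counts of a library, scaled by trimmed mean of M values factors over the 20 libraries), and markers of blood cells to at most 1.13 CPM. The osteoblast lineage markers were RUNX2, SPARC, COL1A1, COL1A2, ALPL and VIM. VIM alone gave 1242 to 1810 CPM per library, whereas RUNX2 gave 18.4 to 92.0 and ALPL 0.990 to 22.5 CPM. COL1A2 was at 0.945 CPM or less in every library. The sum thus rests mainly on VIM, SPARC and COL1A1. The osteoblast sum itself was 5094 to 10685 CPM in untreated and 3851 to 7388 CPM in treated WT libraries, and 3516 to 9263 and 2878 to 6762 CPM in those labelled KO. Epithelial markers summed to 5.10 to 50.3 and 2.45 to 24.2 CPM in WT, and to 4.74 to 45.7 and 2.58 to 11.0 CPM in those labelled KO. The part of these marker levels in the results was not tested. ZBTB48 mRNA lay between 8.03 and 9.44 CPM in untreated WT libraries. In the untreated KO-labelled libraries it was 1.29, 1.94, 11.3, 3.12 and 4.06 CPM in replicates 1 to 5, and after IFNγ 1.69, 1.78, 15.8, 3.84 and 5.27 CPM, against 8.81 to 11.6 CPM in WT. Replicate 3 of the KO-labelled libraries thus had more ZBTB48 mRNA than any WT library of its condition. An mRNA level does not show whether the protein is made, so whether this clone lacks ZBTB48 protein was not tested. The study reports that CIITA protein was low or undetectable in its KO clones after IFNγ. The treated libraries of KO replicates 4 and 5 each correlated with the other's untreated library (r = 0.755 and 0.830 over 14753 genes) and not with their own (r = 0.0150 and 0.0840), so differences per replicate number are uncertain for these. Group values do not depend on that pairing.

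Per length, the 10 genes spanned a wide range in untreated cells. Levels between genes are compared as CPM per kb of exon. In untreated WT libraries HSPB1 stood highest at 863 ± 134 CPM per kb (mean ± SD, n = 5 here and below), followed by HSPA8 at 516 ± 59.3 CPM per kb, with no overlap between these neighbours. HSPD1 at 193 ± 13.5 and HSP90AA1 at 178 ± 14.2 CPM per kb overlapped each other. DNAJB1 came next at 81.7 ± 14.8 CPM per kb and HSPH1 at 30.0 ± 2.59 CPM per kb. BAG3, HSPA1A and HSPA1B at 22.6 ± 2.50, 18.2 ± 1.45 and 15.7 ± 1.10 CPM per kb formed a run in which each overlapped the next. HSPA6, a strictly inducible HSP70 gene, was almost silent at 0.222 ± 0.137 CPM per kb. The untreated KO-labelled libraries had the same order.

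**Figure D1:**
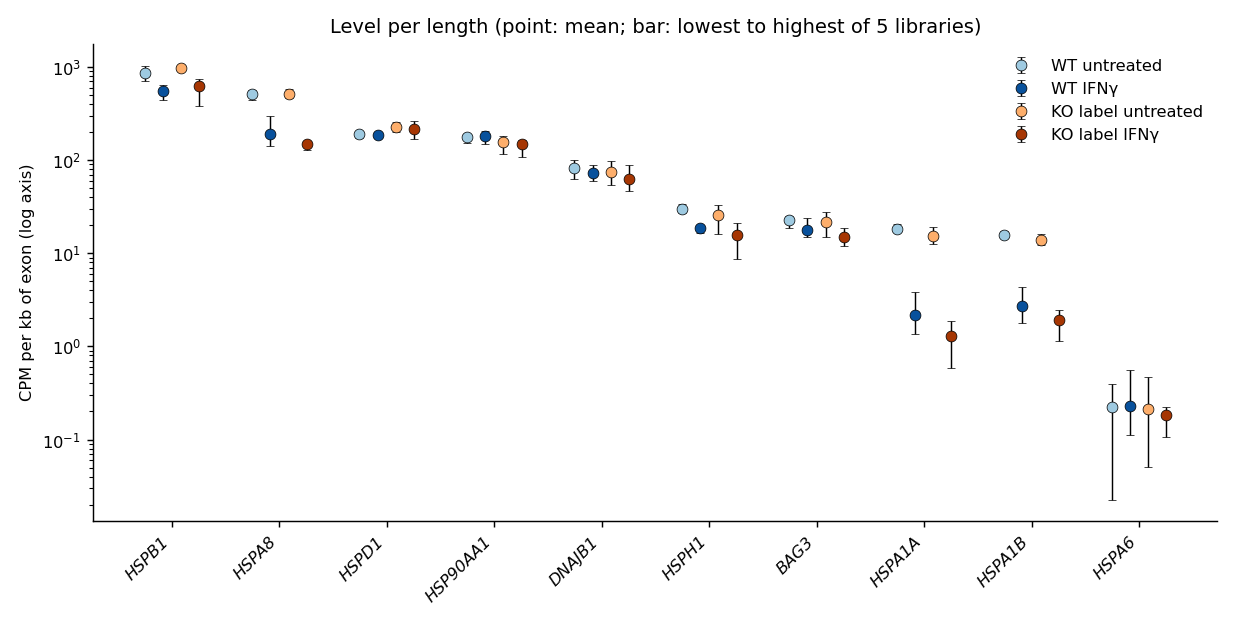
Mean CPM per kb of exon (log axis) of the 10 heat-shock genes in each of the 4 groups, ordered by the level in untreated WT libraries, with bars from the lowest to the highest of 5 libraries. HSPA1A and HSPA1B lie near BAG3 untreated and far below it after IFNγ, and HSPA8 lies at 516 CPM per kb untreated and at 193 CPM per kb treated in WT, near the level of HSPD1 and HSP90AA1.

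After IFNγ the order shifted through the HSP70 genes. HSPA8 in treated WT libraries was at 193 ± 62.6 CPM per kb, overlapping HSPD1 at 187 ± 12.8 and HSP90AA1 at 183 ± 22.0 CPM per kb. In treated KO-labelled libraries, HSPA8 was at 150 ± 13.6 CPM per kb, below every library's HSPD1 at 215 ± 35.2 CPM per kb. HSPA1A and HSPA1B lay far below BAG3, at 2.19 ± 1.10 and 2.74 ± 1.06 CPM per kb in WT against 17.8 ± 3.63 CPM per kb for BAG3. The 10 genes together summed to between 3233 and 3785 CPM in untreated WT libraries and to between 2058 and 2809 CPM after IFNγ. In the KO-labelled libraries their sum ranged from 3481 to 3929 CPM untreated and from 2038 to 2451 CPM after IFNγ. Mean HSPA8 was lower by 62.6% in WT and by 71.2% in the KO-labelled libraries. In bulk libraries such as these, fewer cells that express a gene and less of its RNA per cell cannot be told apart.

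**Figure D2:**
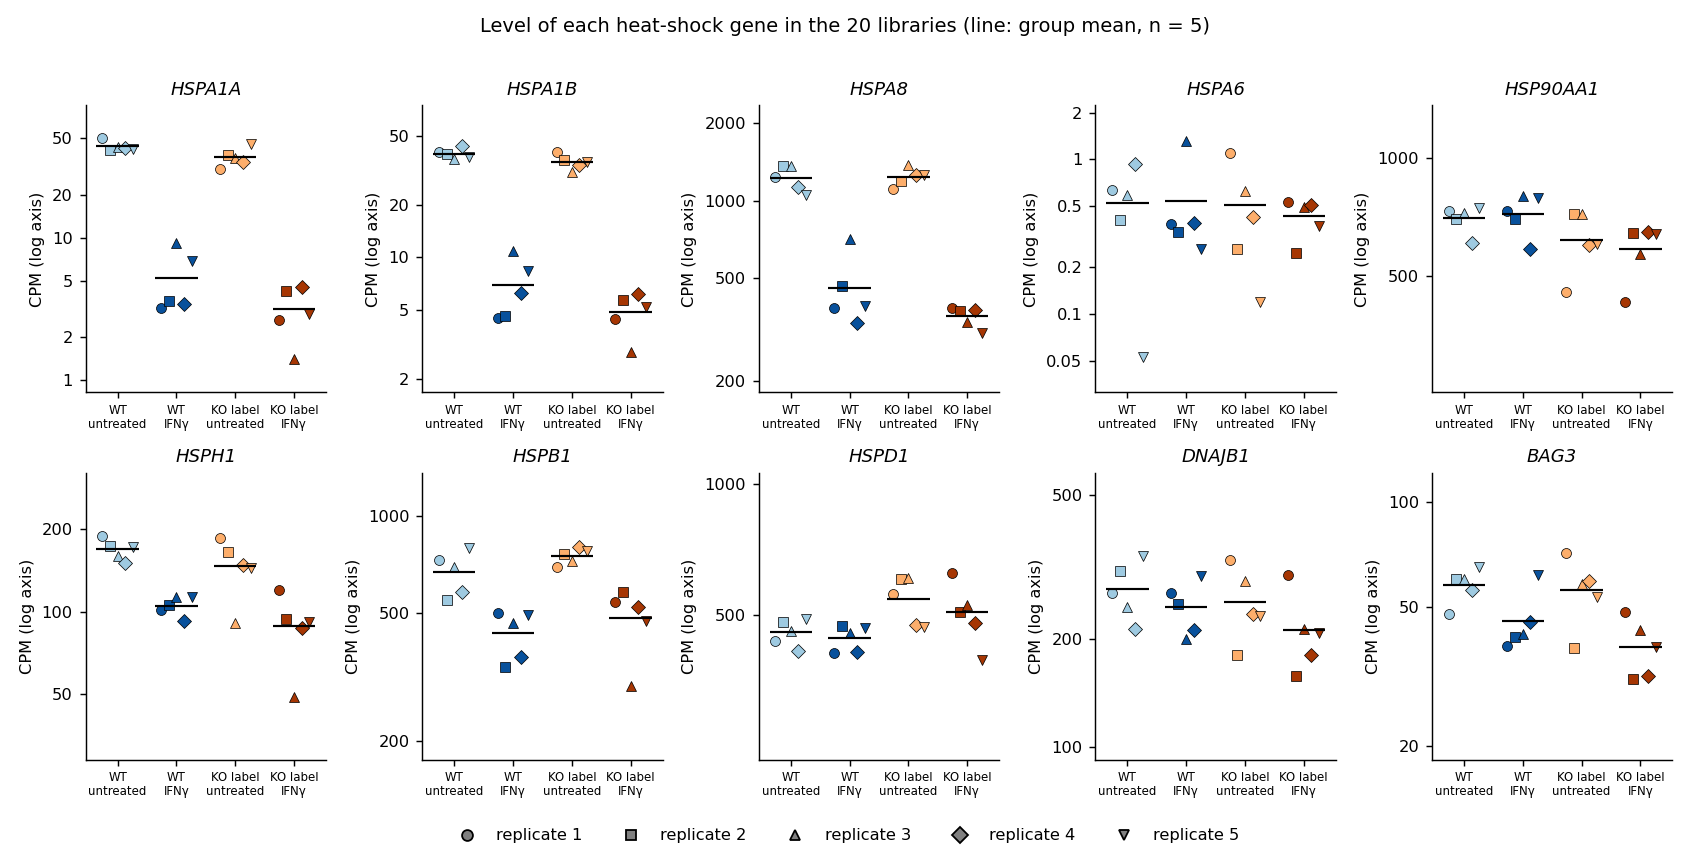
CPM (log axis, own range per panel) of each of the 10 heat-shock genes in the 20 libraries, with 1 symbol per replicate and the mean of 5 as a line. For HSPA1A, HSPA1B, HSPA8 and HSPB1 all IFNγ libraries lie below all untreated libraries of the same genotype, whereas HSP90AA1, HSPD1 and DNAJB1 overlap.

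The stress-inducible HSP70 pair had the largest differences. HSPA1A (chromosome 6, 31815543 to 31817942, plus strand, 1 exon of 2400 bases on GRCh38) encodes the major inducible HSP70. Its level was 49.7, 41.0, 43.5, 42.7 and 41.5 CPM in untreated WT replicates 1 to 5 and 3.23, 3.61, 9.13, 3.41 and 6.86 CPM after IFNγ. The KO-labelled libraries had 30.5, 37.7, 36.3, 34.1 and 45.6 CPM untreated and 2.65, 4.21, 1.40, 4.51 and 2.91 CPM after IFNγ. Every treated library lay below every untreated library, and among the treated WT libraries replicates 3 and 5 kept the most. The treated values rested on 74 to 678 counts per library, so that counting error is small beside the spread between clones. Clone by clone, HSPA1A was 4.76 to 15.4 times lower in WT. Between group means it was 8.32 times lower in WT and 11.7 times lower in the KO-labelled libraries. The fitted log2 fold change was -3.04 in WT and -3.55 in the KO-labelled libraries, and DESeq2 with normal shrinkage gave -2.42 and -2.89.

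HSPA1B (chromosome 6, 31827738 to 31830254, plus strand) lies 9795 bases beyond HSPA1A and encodes virtually the same protein. It was at 40.2, 39.0, 36.9, 43.9 and 37.5 CPM in untreated WT replicates 1 to 5 and at 4.51, 4.61, 10.8, 6.28 and 8.31 CPM after IFNγ. The KO-labelled libraries had 40.1, 36.1, 30.8, 33.9 and 35.5 CPM untreated and 4.40, 5.72, 2.86, 6.19 and 5.18 CPM after IFNγ. Replicate 3 was again the highest of the treated WT libraries and the lowest of the treated KO-labelled libraries. The fitted log2 fold change was -2.50 in WT and -2.86 in the KO-labelled libraries. Without KO replicate 3 the fold change of the KO-labelled libraries was -2.75 for HSPA1B, -3.37 for HSPA1A and, of the genes described further on, -1.73 for HSPA8 and -0.52 for HSPB1.

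HSPA1A and HSPA1B share much of their sequence. Of all 150-base windows of HSPA1A, 69.6% occur unchanged in HSPA1B, and 66.1% of those of HSPA1B occur in HSPA1A. Reads were 150 bases long in pairs and only unique mappers were counted. How many pairs were left out because they matched both genes was not measured, so the split between the genes is uncertain. With the counts of both summed, the pair was 85.4% lower in WT and 88.9% lower in the KO-labelled libraries by group means, with a fitted log2 fold change of -2.76 and -3.17. HSPA1A gave 43.2% to 56.2% of the pair's counts in untreated libraries and 32.9% to 45.7% in treated libraries.

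HSPA8 (chromosome 11, minus strand), the constitutive HSP70 of the cytosol, was lower as well. It stood at 1235, 1365, 1363, 1125 and 1049 CPM in untreated WT replicates 1 to 5 and at 385, 469, 712, 337 and 390.2 CPM after IFNγ. Those labelled KO had 1111, 1191, 1373, 1256 and 1258 CPM untreated and 383, 376, 338, 379 and 309 CPM after IFNγ. The groups did not overlap, and replicate 3 kept the most among treated WT libraries, as for HSPA1A and HSPA1B. Clone by clone HSPA8 was 1.92 to 3.34 times lower in WT, and between group means it was 2.68 times lower in WT and 3.47 times lower in the KO-labelled libraries. The fitted log2 fold change was -1.41 in WT and -1.80 in the KO-labelled libraries.

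HSPA6 (chromosome 1), which cells make only under strong stress, was too low to follow. Its counts ranged from 3 to 97 per library. The WT levels ran from 0.0531 to 0.929 CPM (median 0.589) untreated and from 0.263 to 1.31 CPM (median 0.381) after IFNγ, and the KO-labelled libraries from 0.119 to 1.10 CPM (median 0.422) and from 0.248 to 0.527 CPM (median 0.492). It was lower after IFNγ in 3 of 5 WT replicates and in 3 of 5 replicates labelled KO. The treated and untreated groups overlapped in each genotype, and a difference could not be seen at this depth.

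The exchange factors and J-domain protein that serve HSP70 differed less. HSPH1 (chromosome 13), the HSP110 exchange factor, was at 189, 174, 160, 151 and 173 CPM in untreated WT replicates 1 to 5 and at 102, 105, 113, 92.6 and 113 CPM after IFNγ. The KO-labelled libraries had 186, 165, 91.0, 148 and 145 CPM untreated and 120, 93.9, 48.9, 87.3 and 91.7 CPM after IFNγ. The WT groups did not overlap, whereas in the KO-labelled libraries replicate 3 was low in both conditions and made the groups overlap. Replicate by replicate the log2 difference was -0.69 ± 0.15 in WT and -0.75 ± 0.11 in the KO-labelled libraries (mean ± SD), and it was below 0 in 5 of 5 replicates of each.

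BAG3 (chromosome 10), the stress-inducible exchange factor that links HSP70 to autophagy, ranged from 47.9 to 65.0 CPM in untreated WT libraries (median 60.1) and from 38.6 to 61.8 CPM after IFNγ (median 42.0). With the KO label it ranged from 38.2 to 71.4 CPM untreated (median 58.1) and from 31.0 to 48.4 CPM after IFNγ (median 38.4). The groups overlapped in each genotype although BAG3 was lower in 5 of 5 replicates, by -0.35 ± 0.20 and -0.54 ± 0.23 on the log2 scale. DNAJB1 (chromosome 19), the J-domain protein that activates inducible HSP70, ranged from 212 to 338 CPM untreated and from 199.5 to 299 CPM after IFNγ in WT, with 4 of 5 replicates lower. With the KO label it ranged from 181 to 330 CPM and from 157 to 300.2 CPM, with 5 of 5 lower. Its log2 difference was -0.16 ± 0.15 in WT and -0.26 ± 0.14 in the KO-labelled libraries. Of the exons of DNAJB1, 85 bases are shared with TECR on the opposite strand.

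The small heat-shock protein HSPB1 was lower in every replicate. HSPB1 (chromosome 7) holds unfolded proteins and binds actin. It was at 729, 548, 695, 582 and 799 CPM in untreated WT replicates 1 to 5 and at 499, 340.2, 466, 364 and 494 CPM after IFNγ. Libraries labelled KO had 697, 763, 725, 804 and 782 CPM untreated and 539, 581, 297, 523 and 471 CPM after IFNγ. The groups did not overlap in either genotype, and replicate 3 labelled KO was the lowest treated library. The log2 difference was -0.64 ± 0.07 in WT and -0.68 ± 0.37 in the KO-labelled libraries.

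HSP90AA1 and HSPD1 differed little. HSP90AA1 (chromosome 14), the inducible cytosolic HSP90, ranged from 607 to 747 CPM in untreated and from 587 to 802 CPM in treated WT libraries, and from 454 to 721 and 428 to 646 CPM in the KO-labelled libraries. Replicate 1 labelled KO was the lowest in both conditions, with 454 and 428 CPM. The log2 difference was 0.03 ± 0.08 in WT and -0.08 ± 0.18 in the KO-labelled libraries, lower in 3 of 5 replicates of each. HSPD1 (chromosome 2) ranged from 412 to 490 CPM untreated and from 408 to 470.2 CPM treated in WT, and from 469 to 608 and 394 to 624 CPM in the KO-labelled libraries. Its log2 difference was -0.04 ± 0.04 in WT and -0.11 ± 0.19 in the KO-labelled libraries. Of the exons of HSP90AA1 307 bases are shared with WDR20 on the opposite strand, and 116 bases of HSPD1 are shared with SNORA105B.

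**Figure D3:**
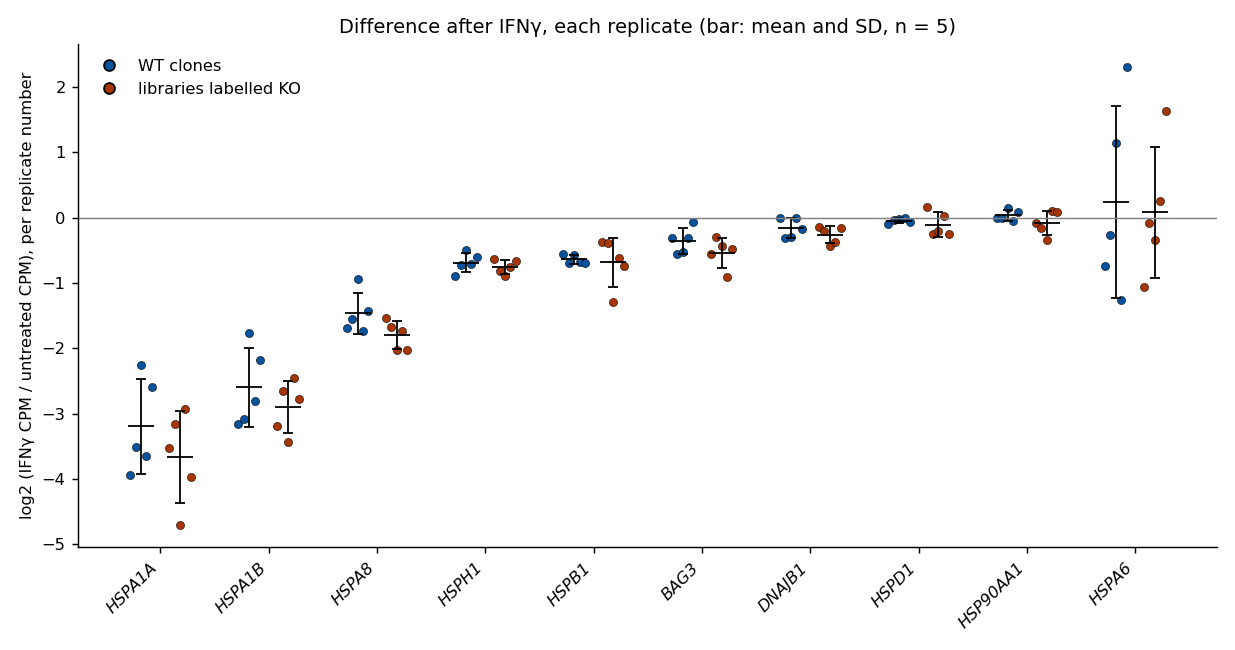
Log2 ratio of IFNγ to untreated CPM of each heat-shock gene, 1 point per replicate number, for WT clones and KO-labelled libraries, with mean and SD of 5. HSPA1A, HSPA1B and HSPA8 lie below 0 in all replicates with WT means of -3.19, -2.60 and -1.47, and HSPD1 and HSP90AA1 lie near 0.

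In all, 7 of the 10 genes were lower after IFNγ in 5 of 5 WT replicates and 7 in 5 of 5 replicates labelled KO. The sets were not the same. HSPD1 was among them in WT alone, with a log2 difference of -0.04 ± 0.04, and DNAJB1 with the KO label alone. The share of all genes lower in 5 of 5 replicates was not computed. In WT, 5 genes (HSPA1A, HSPA1B, HSPA8, HSPH1 and HSPB1) had all treated libraries below all untreated libraries, against 4.43% of the 19522 genes tested. In the KO-labelled libraries there were 4 such genes (the same without HSPH1), against 3.48% of 19385. The genes were chosen on this contrast, so nothing is read from these counts. No test of the difference between genotypes is given for the same reason. By replicate means, the log2 difference of the KO-labelled libraries minus that of WT was -0.47 for HSPA1A, -0.30 for HSPA1B, -0.33 for HSPA8 and between -0.05 and -0.18 for the other 7.

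The neighbouring HSP70 gene HSPA1L, which starts 259 bases before HSPA1A on the opposite strand and is chiefly known from testis, was also lower. It ranged from 2.18 to 3.11 CPM untreated and from 0.432 to 0.902 CPM after IFNγ in WT, and from 1.65 to 2.87 CPM and 0.325 to 1.12 CPM in the KO-labelled libraries. It fell in WT by 1.85 on the log2 scale (edgeR adjusted p = 0.000846 over all genes), whereas in the KO-labelled libraries the log2 fold change of -1.73 had an adjusted p of 0.0105. HSPA1L belongs to the wider lists below, which were drawn up with earlier results of these data known. Whether reads of the divergent HSPA1A start region contribute to the HSPA1L counts was not tested.

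Wider lists of 86 chaperones, cochaperones and heat-shock response genes, fixed by family and without the 10 genes, were tested in edgeR over all genes. They too were drawn up with earlier results of these data known, so their counts and p-values after IFNγ are not independent support. Genes were called at an adjusted p under 0.01 and more than 2-fold. The study used these cut-offs between WT and KO clones, on shrunken DESeq2 fold changes, and marked genes after IFNγ at a higher fold. In WT, 82 passed the filter on low counts and 3 were called, 2 higher and 1 lower. Of all genes, 3.0% were called in either direction. HERPUD1, which brings ubiquitin ligases to the endoplasmic reticulum (ER) membrane, rose by 2.01 on the log2 scale (edgeR adjusted p = 0.00217), and ZFAND2A, a proteasome-binding stress gene, rose by 1.05 (adjusted p = 0.00623). HSPA1L was the gene called lower. In the KO-labelled libraries 2 of 82 were called, against 1.96% of all genes. HERPUD1 rose by 1.72 (edgeR adjusted p = 0.00116), and SDF2L1, a partner of ER J-domain proteins, fell by 1.33 (adjusted p = 0.00194). ZFAND2A was not called there but was higher in 5 of 5 KO-labelled replicates, with a mean log2 difference of 1.17. Likewise SDF2L1, not called in WT, was lower in 5 of 5 WT replicates, with a mean log2 difference of -1.02. With the replicate number as a block 7 list genes were called in WT and 6 in the KO-labelled libraries. In WT 1 list gene was called without replicate 1 or without replicate 2 and 0 without replicate 4. Among the KO-labelled libraries 1 was called without replicate 1 or without replicate 3, and 0 without replicate 4 or without replicate 5. The median log2 fold change over the list genes tested was -0.06 in WT and -0.08 in the KO-labelled libraries, beside -0.03 and -0.03 over all genes.

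By family, of 12 HSP90 family members and cochaperones 0 were called in either genotype, with medians of -0.19 and -0.25. HSP90AB1, the constitutive HSP90, had log2 fold changes of -0.07 and -0.24 (WT, then KO label, here and below). STIP1, which joins HSP70 to HSP90, had -0.19 and -0.32, and the HSP90 cochaperone CHORDC1 -0.21 and -0.15. Of 10 J-domain proteins 0 were called, with DNAJA1 at 0.23 and 0.04 and DNAJB4 at -1.09 and -0.88. HSPA4, an HSP110 protein like HSPH1, had -0.06 and -0.12. Its low-level relative HSPA4L, named after its values were seen, had 3.47 and 3.72 from no more than 0.159 CPM in untreated libraries, and was not called either. Of the small heat-shock proteins CRYAB had -1.42 and -1.28 and HSPB8, the partner of BAG3, -0.70 and -0.69, and neither was called. SERPINH1, the collagen chaperone, had -0.53 and -0.47.

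In mitochondria HSPE1, the lid of the HSPD1 chamber that is transcribed from the same divergent promoter, had log2 fold changes of -0.51 and -0.68, whereas HSPA9, the mitochondrial HSP70, had 0.78 and 0.89. None of the 7 mitochondrial genes was called. In the ER HSPA5, the HSP70 of that compartment, had -0.13 and -0.17 and HSP90B1, its HSP90, -0.23 and -0.29. All 8 TRiC chaperonin genes lay within -0.46 and 0.18 across both genotypes. HSF1 had 0.23 and 0.20 and HSF2 0.01 and 0.20, and neither was called. Counts at an unadjusted p under 0.05 were 28 of 82 list genes in WT, against 24.9% of all genes, and 34 of 82 in the KO-labelled libraries, against 23.5%.

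**Figure D4:**
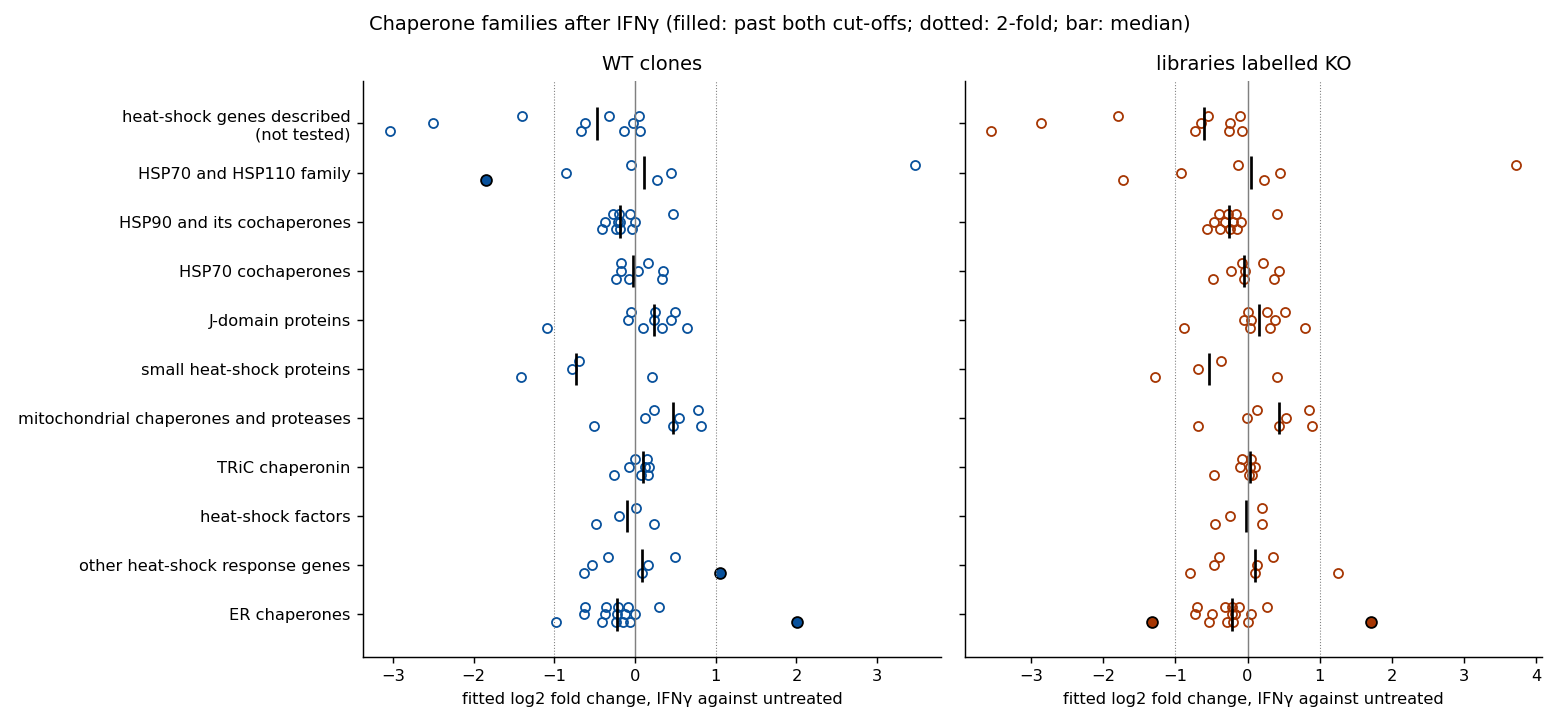
Fitted log2 fold change after IFNγ of the 10 heat-shock genes (top row) and of the wider chaperone lists, in WT clones and in KO-labelled libraries. Filled points of the wider lists passed both cut-offs, the 10 heat-shock genes are drawn open as they were not tested, dotted lines mark 2-fold and bars the list medians, and the isolated point near 3.5 in the HSP70 and HSP110 family is the low-level gene HSPA4L, which was not called.

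Immediate-early genes, which respond to handling and serum within minutes, were followed as a check on the state of the cultures. Their 21 genes summed to between 4261 and 6906 CPM in untreated and 3983 and 5623 CPM in treated WT libraries, and to between 3824 and 8759 CPM and 4454 and 5827 CPM in the KO-labelled libraries. Of 20 tested in WT, 1 was called higher (ATF3, a stress-responsive factor, by 1.82 on the log2 scale) and 2 lower (FOS, by -2.99, and FOSB, by -3.72), while in the KO-labelled libraries only FOS was called, by -2.32. FOSB and ATF3 were not called in the KO-labelled libraries but differed in the same direction. FOSB ranged there from 40.9 to 284 CPM untreated and from 10.9 to 32.6 CPM treated. ATF3 was higher in 5 of 5 KO-labelled replicates, with a mean log2 difference of 1.98. EGR1 had -0.51 and -0.38 and JUN 0.09 and 0.08. FOS ranged from 433 to 963 CPM in untreated and from 46.3 to 166 CPM in treated WT libraries. The part of handling in the HSP70 values was not tested. All 10 interferon-stimulated genes listed were called higher in each genotype, and their sum ranged from 330.2 to 465 CPM in untreated and from 8548 to 11267 CPM in treated libraries.

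WT and KO labels were compared next, within each condition, to see whether ZBTB48 genotype was related to the heat-shock genes. No member of the group was called by edgeR in untreated libraries, where 0.0154% of 19505 genes were called, nor after IFNγ, where 0.0155% of 19383 were. None had WT and KO labels without overlap, against 1.00% and 0.805% of all genes in either direction. DESeq2, with or without shrinkage, also called 0 of 10 in each condition. At an unadjusted p under 0.05 edgeR gave 1 of 10 in untreated libraries, against 4.79% of all genes, and 0 of 10 after IFNγ, against 4.35%.

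In untreated libraries that gene was HSPD1, at 455 ± 31.9 CPM in WT and 543 ± 68.5 CPM in the KO-labelled libraries. Its log2 fold change of WT against KO label was -0.26 (95% interval -0.50 to -0.02, edgeR adjusted p = 0.980 over all genes). HSPA1A was at 43.7 ± 3.49 CPM in WT and 36.8 ± 5.61 CPM in the KO-labelled libraries, a log2 fold change of 0.24 (95% interval -0.03 to 0.51). A two-sided exact permutation test of mean log2 CPM gave HSPA1A p = 0.0476 untreated, the smallest of 20 such tests over the 10 genes and both conditions, and its Benjamini-Hochberg adjusted p was 0.278. The smallest p that 5 against 5 libraries allow is 0.00794. HSPA8 differed by -0.02 (95% interval -0.27 to 0.22), a ratio of WT to KO label of 0.985 with an interval from 0.831 to 1.17.

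After IFNγ the intervals were wider for the genes that were low. HSPA1A was at 5.25 ± 2.64 CPM in WT and 3.14 ± 1.26 CPM in the KO-labelled libraries, a log2 fold change of 0.74 (95% interval -0.11 to 1.60, edgeR adjusted p = 0.996), and the exact permutation test gave p = 0.159. HSPA1B was at 6.91 ± 2.68 and 4.87 ± 1.31 CPM, a log2 fold change of 0.50 (95% interval -0.16 to 1.16). HSPA8 was at 459 ± 149 and 357 ± 32.4 CPM, a log2 fold change of 0.36 (95% interval -0.05 to 0.78). HSP90AA1 was at 722 ± 86.7 and 585 ± 93.7 CPM, a log2 fold change of 0.30 (95% interval -0.02 to 0.62). A difference of up to 3.02-fold in HSPA1A thus lies within its interval. WT replicate 3 was the highest treated WT library for HSPA1A, HSPA1B and HSPA8, with 712 CPM for HSPA8. When 1 replicate at a time was left out, the treated log2 fold change ran from 0.15 to 0.46 for HSPA8. For HSPA1A it ran from 0.44 to 0.91 and for HSPA1B from 0.28 to 0.62. Without KO replicate 3 the log2 fold change of HSPA1A was 0.56 after IFNγ and 0.23 untreated, that of HSPH1 was 0.10 in place of 0.25 after IFNγ and 0.07 in place of 0.20 untreated, and 0 of 10 genes were called in either condition. Over the 10 genes the fold changes without that replicate ran from -0.22 to 0.23 untreated and from -0.29 to 0.56 after IFNγ.

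Of the wider lists 0 of 81 genes were called between the labels in untreated libraries and 0 of 82 after IFNγ, by edgeR and by DESeq2 alike. At an unadjusted p under 0.05 the counts were 8 and 6, against the shares of all genes just given. Of these, 5 of the 8 and 6 of the 6 were among the 16 ER chaperones, of which 13 had a fold change above 0 (higher in WT) untreated and 14 after IFNγ. The TRiC chaperonin genes went the other way, with 8 of 8 below 0 in each condition and 2 of them at p under 0.05 untreated. Both families were picked out after their values were seen, and the untreated and treated libraries share clones. CALR, an ER chaperone of glycoproteins named after its values were seen, had log2 fold changes of 0.38 and 0.52 (edgeR adjusted p = 0.873 and 0.935 over all genes).

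**Figure D5:**
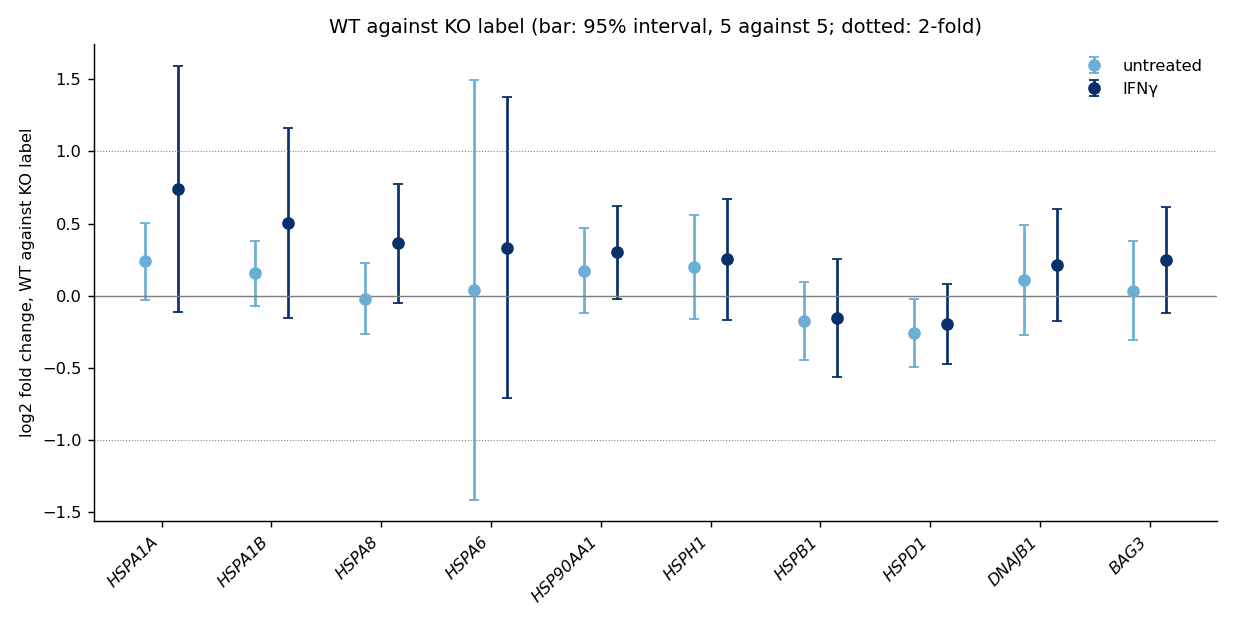
Fitted log2 fold change of WT against KO label for the 10 heat-shock genes, untreated and after IFNγ, with 95% intervals from 5 against 5 libraries and dotted lines at 2-fold. All intervals but that of HSPD1 in untreated libraries include 0, and those of HSPA6 and, after IFNγ, HSPA1A and HSPA1B reach beyond 2-fold.

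From clone to clone the 10 genes varied together only in part. With group means subtracted, log2 CPM of HSPA1A and HSPA1B correlated at r = 0.887 over the 20 libraries, and those of DNAJB1 and BAG3 at r = 0.761. HSP90AA1 and BAG3 gave r = -0.496, the lowest of the 45 pairs. The points share clones. The SD of log2 CPM within groups was 0.17 for HSPD1, 0.24 for HSPA8, 0.36 for HSPA1B and 0.49 for HSPA1A, which stood at the 6.53, 20.6, 40.6 and 55.4 percentile of the 21052 genes that passed the filter over all libraries. Among 20918 genes outside the lists, the 5 most like the mean of the 10 genes over the 20 libraries included RCAN3 (r = 0.823), DNAAF10 (r = 0.805), CCDC34 (r = 0.804) and C17orf107 (r = 0.802). In treated libraries alone 2 of the top 5 were the same, and in untreated libraries alone 0.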

How the data were processed

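PolyA RNA of 5 WT clones and 5 clones labelled ZBTB48 KO was sequenced untreated and after IFNγ. The authors deposited whole-number read counts per gene, made from 150-base paired reads aligned to GRCh38 with STAR 2.7.9a, of which unique mappers were counted with featureCounts 2.4.0 (names and versions from the submitters' processing notes). The kit was stranded, and whether counting used strand is not given in the sources used here. The deposited table also holds the exon length of each gene, used for CPM per kb. All 20 columns of counts were mapped to samples by their names, and 0 were left without a sample.

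Counts were tested in R 4.3.3 with edgeR 4.0.16 (robust quasi-likelihood test, TMM factors, filterByExpr, limma 3.58.1 underneath), each comparison on its own 10 libraries, with Benjamini-Hochberg adjustment over all genes tested. A gene was called at an adjusted p under 0.01 and more than 2-fold. DESeq2 1.42.0 was an alternative. Single values of WT against KO label were tested by exact permutation of mean log2 CPM. The fit was tested on simulated data.

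Samples were grouped by their titles, and the clone labels pair treated with untreated libraries. Deviations from the group means of same-numbered libraries correlated at r = 0.768 to 0.883 in WT, at 0.764, 0.839 and 0.686 for KO replicates 1 to 3, and at 0.0150 and 0.0840 for KO replicates 4 and 5 (14753 genes). The blocked fit is therefore an alternative, given beside counts that it moves.

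The 10 genes and the chaperone lists were chosen with earlier results of these data known. Named were the 10 genes, called genes of the wider chaperone lists, 15 further chaperones and heat-shock factors called or not, FOS, EGR1, JUN and ATF3 of the immediate-early list, ZBTB48, and the 5 genes most like the mean of the 10, of which 1 is not reported here. FOSB, HSPA4L, CALR and the single osteoblast lineage markers were named after their values were seen. No p-value is given for the 10 genes between treated and untreated libraries.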

Additional observations from a re-analysis of the deposited data

Results flagged for a closer look

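In groups of 5, a library was looked at again where its gap to the nearest other, as a share of the group's range of log2 CPM, exceeded 0.71. Among 40 groups tested (10 genes in 4 groups) 2 met this, both for HSPA6, and chance alone gives about 1 in 20. In untreated WT libraries replicate 5 was the lowest at 0.0531 CPM, with 0.406 CPM in the nearest library, a share of 0.71 that lies just above that value. In treated WT libraries replicate 3 was the highest at 1.31 CPM, with 0.388 CPM in the nearest library, a share of 0.757. HSPA6 had 3 to 97 counts per library, and the cause was not tested.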

How the results depend on the processing

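Of 260 fold changes of the 10 genes after IFNγ recomputed under alternatives, 257 moved by less than the spread between clones and 3 by more (HSPB1 and HSPD1 in WT on library totals, -0.69 and -0.10, and HSPH1 in KO-labelled libraries with DESeq2 normal shrinkage, -0.61). No alternative called any of the 10 genes between WT and KO label. There 346 of 360 fold changes kept their direction and 14 reversed, all in HSPA8, HSPA6 or BAG3, whose intervals include 0. Leaving out 1 replicate gave untreated HSPA8 -0.061 to 0.032, HSPA6 -0.28 to 0.53 and BAG3 -0.081 to 0.13, and treated HSPA6 -0.32 to 0.50. Leaving out KO replicates 4 and 5 both, an alternative chosen after seeing the data, gave untreated HSPA8 0.00060 and HSPA6 -0.35.

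Genes called after IFNγ in WT numbered 585, against 966 at an adjusted p under 0.05, 943 at any fold, 1414 with the replicate block and 976 with DESeq2 without shrinkage, and 318 (without replicate 2) to 457 when a replicate was left out, with 355 without replicate 1. The wider chaperone lists had 3 called, against 6, 9, 7 and 6 in the same order, and 0 to 3. In KO-labelled libraries 379 genes were called, against 745 at an adjusted p under 0.05, 642 with all 20 libraries in 1 fit, 721 with the replicate block, 1208 with the block and KO replicates 4 and 5 exchanged, 819 and 627 with DESeq2 without and with normal shrinkage, 131 (without replicate 4) to 490 when a replicate was left out, and 22 without KO replicates 4 and 5. The counts were 167 without replicate 1, 160 without replicate 3 and 142 without replicate 5. The lists had 2 called, against 4 at an adjusted p under 0.05, 4 at any fold, 5 in 1 fit, 6 with the replicate block, 6 exchanged, 5 and 4 with DESeq2, 0 to 3 when a replicate was left out, and 0 without both.

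Between WT and KO label 3 untreated genes were called, against 6 at an adjusted p under 0.05, 5 without a filter, 5 in 1 fit, 1 with the replicate block, 12 and 5 with DESeq2, and 2 to 4 when a replicate was left out. After IFNγ 3 were called, against 5 without a filter, 6 in 1 fit, 16 and 7 with DESeq2, and 3 to 5 (5 without KO replicate 1). Of the 5 genes most like the mean of the 10, 0 were the same in untreated and 2 in treated libraries alone. The cause of these shifts was not tested. Depth limits HSPA6, and unique mapping limits HSPA1A and HSPA1B.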
